A study of Drosophila melanogaster with 3 samples.

Results

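The trithorax group genes trx, ash1, ash2, brm, osa, mor and kis were examined for binding of Insensitive (Insv), a BEN-domain DNA-binding protein and corepressor of Drosophila melanogaster. The 7 genes were taken as a named set among 13945 protein-coding genes of the major chromosome arms. A reproducible Insv peak was assigned to a gene when its summit lay in the gene body or within 5 kb on either side, and 17 of 4753 such peaks, at 16 separate loci, met this rule. Chromatin immunoprecipitation and sequencing with an antibody against GFP had been done on whole embryos, males and females pooled and 0 to 24 h old, of a transgenic line carrying Insv fused to GFP at its C terminus. The 3 biological replicates form a single group with no other genotype or treatment. All embryos carry the same tagged transgene, the element that drives it is not given in the sources used here, and signal from different cell types of the embryo is averaged.

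The reproducible peaks are those that passed the authors' test of the irreproducible discovery rate (IDR), and are called IDR peaks here. Each replicate list and the pooled list held 30000 relaxed regions, and the IDR peaks were the 4753 pooled regions with the highest signal. A place in the IDR list therefore follows pooled signal, and does not show that a single peak ranked high in each replicate. A rank of 1 is the strongest region of a list, and a percentile gives the share of the list at or below a region, so percentiles within the IDR list and within a list of 30000 are different quantities. Between 8416 and 13955 regions per replicate had a q-value below 0.05. How many reads lie behind each list is unknown. The gene of the tagged protein, insv, had a peak of rank 57, whose summit was 291 bp from its transcription start site, or TSS.

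Trithorax group proteins keep developmental genes such as the Hox genes active, against the Polycomb group, which keeps them silent. The proteins trx and ash1 are histone methyltransferases, and ash2 is a core subunit of the COMPASS family of methyltransferase complexes. The gene brm encodes the ATPase of the Brahma chromatin remodelling complexes, mor a core subunit of them, osa the ARID-domain subunit that defines the BAP form, and kis a chromodomain helicase of the CHD family.

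The sequences under the main peaks and at the member TSSs without a peak are shown so that the bound and unbound starts described next can be read side by side. All are the plus strand of dm6, on which trx, ash1, osa, brm, mor and kis run right to left and Arl1 runs left to right, and capitals mark matches on either strand to the sites searched for (the Insv core CCAATTGG, a degenerate Insv site, the Elba site CCAATAAG, the DREF site TATCGATA, the BEAF-32 site CGATA, the M1BP site GGTCACAC, the GAGA factor site GAGAG and the Pho core GCCAT). The first 3 lie 50 bp to each side of an IDR summit, the fourth is the whole gap between the starts of brm and Arl1, and the last 4 lie round the strongest pooled region at a TSS with no IDR peak, without bases annotated as transcribed leader.
trx, upstream of the TSS, chr3R:14287004-14287104: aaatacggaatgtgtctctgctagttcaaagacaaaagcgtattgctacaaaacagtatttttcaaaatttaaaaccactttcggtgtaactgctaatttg
trx, first intron, chr3R:14283840-14283940: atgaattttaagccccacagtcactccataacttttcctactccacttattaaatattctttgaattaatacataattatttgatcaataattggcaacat
ash1, past the 3′ end, chr3L:19590585-19590685: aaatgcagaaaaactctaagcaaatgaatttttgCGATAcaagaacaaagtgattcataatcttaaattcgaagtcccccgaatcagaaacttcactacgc
brm, between brm and Arl1, chr3L:15982870-15983134: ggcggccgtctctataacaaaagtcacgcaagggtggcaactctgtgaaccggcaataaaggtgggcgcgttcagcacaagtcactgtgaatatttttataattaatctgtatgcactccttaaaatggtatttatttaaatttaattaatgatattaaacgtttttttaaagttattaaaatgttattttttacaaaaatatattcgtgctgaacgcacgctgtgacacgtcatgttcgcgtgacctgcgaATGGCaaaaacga
ash1, own TSS, no IDR peak, chr3L:19598764-19598864: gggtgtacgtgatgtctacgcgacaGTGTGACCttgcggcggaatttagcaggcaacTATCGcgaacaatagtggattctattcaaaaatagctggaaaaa
osa, own TSS, no IDR peak, chr3R:17718351-17718424: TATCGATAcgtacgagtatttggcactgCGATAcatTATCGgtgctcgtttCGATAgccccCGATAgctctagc
mor, own TSS, no IDR peak, chr3R:15972966-15973066: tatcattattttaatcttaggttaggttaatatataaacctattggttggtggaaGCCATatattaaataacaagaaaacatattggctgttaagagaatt
kis, upstream TSS, no IDR peak, chr2L:250896-250996: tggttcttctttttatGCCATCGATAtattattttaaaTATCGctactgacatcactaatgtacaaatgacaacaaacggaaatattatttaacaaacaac

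Every member window held an IDR summit, 7 of 7 against 50.1% of protein-coding genes, while trx and brm alone had one within 500 bp of their own TSS, 2 of 7 against 24.8% of protein-coding genes. The promoter share of the members, 28.6%, was near that of all genes. Of the 17 summits, 6 lay in introns, 4 upstream and 7 beyond the 3′ end of the member, and the nearest TSS of any gene belonged to the member in 6 cases. The summits per window were 6 for osa, 3 for ash1, 2 each for trx, brm and mor, and 1 each for ash2 and kis. Over the 193 kb of member windows this was 0.881 summits per 10 kb, against 0.355 per 10 kb of the major arms. The windows are centred on genes, and all members' bodies are longer than the median protein-coding body of 2166 bp, so the densities cover different kinds of sequence.

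**Figure D1:**
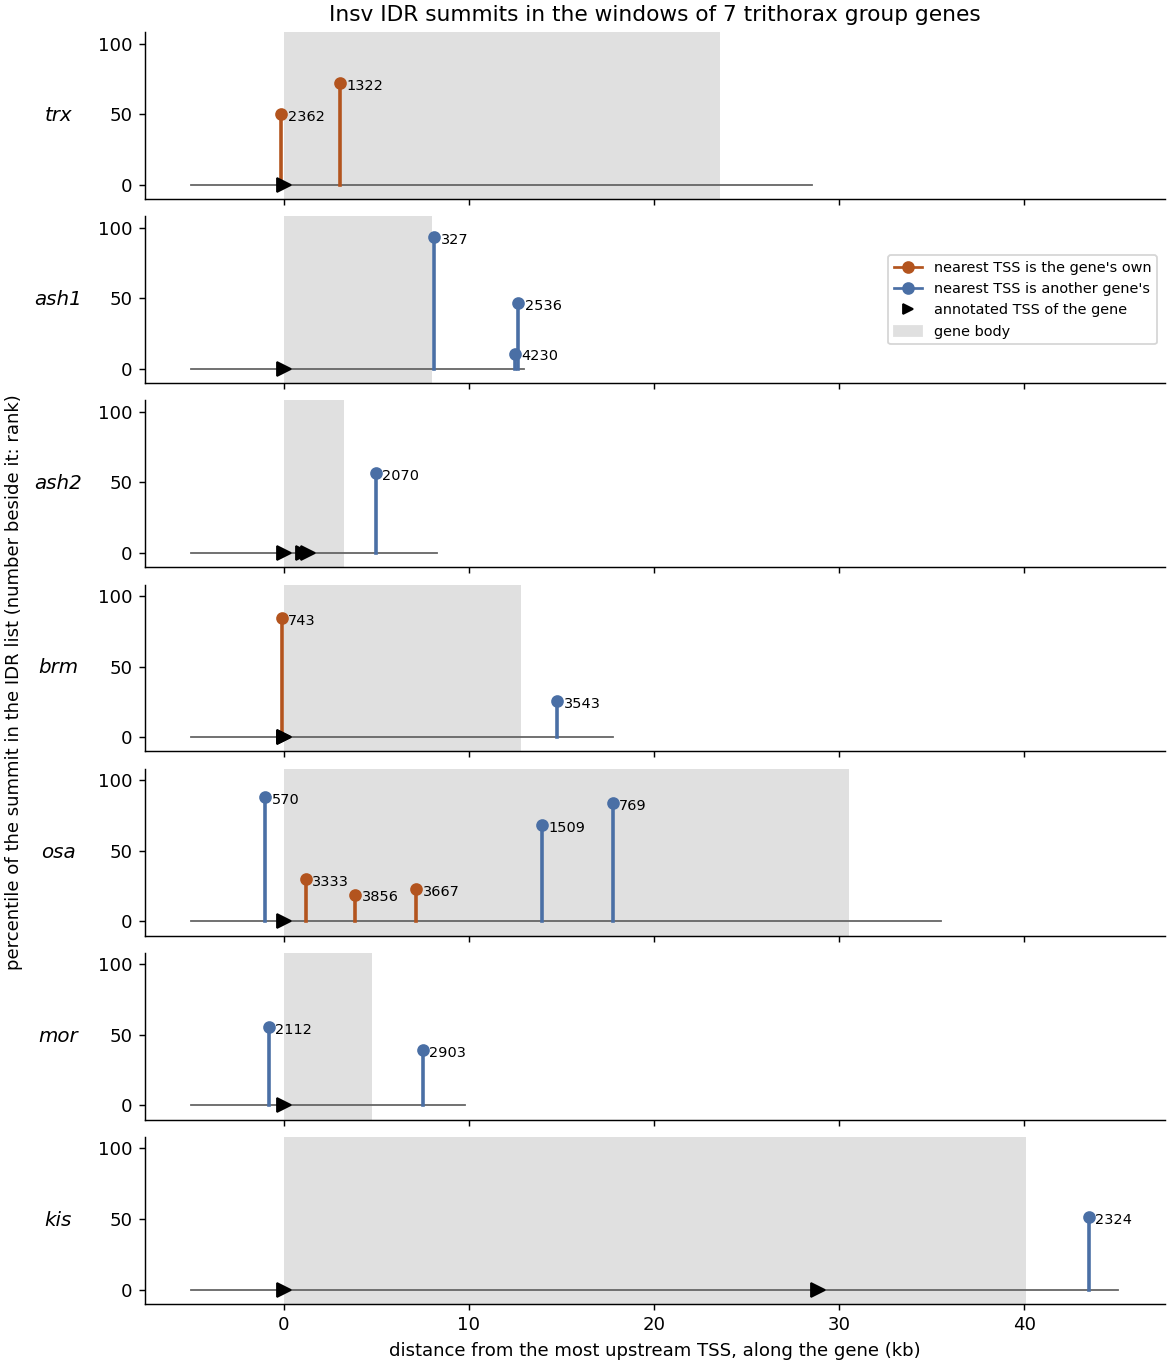
Position of each IDR summit along the 7 genes, in kb from the most upstream TSS in the direction of transcription, with the height giving its percentile in the IDR list and the number its rank. Orange marks summits nearest to the gene's own TSS, blue those nearest to another gene's, grey the gene body and triangles the annotated TSSs. Summits at the gene's own TSS appear for trx (rank 2362) and brm (rank 743). The bodies of ash1, ash2, brm, mor and kis (40089 bp, the longest) hold none.

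Among the subunits of the Brahma complexes, brm carried the strongest promoter peak of the set. The gene (FBgn0000212) lies on the minus strand of 3L from 15970082 to 15982869, and its peak, from 15982823 to 15983187 with the summit at 15982991, ranked 743 of 4753. The summit stood 122 bp upstream of the TSS used by 5 of its 6 transcripts. This is the gap of 266 bp between the start of brm and that of Arl1, a small GTPase gene on the other strand, so the peak cannot be given to either gene alone. In the replicate lists it ranked 497 in replicate 1, 805 in replicate 2 and 1377 in replicate 3, a mean percentile of 97.0 ± 1.49 (SD, n = 3). The body of brm itself was almost bare: 1 relaxed region of the pooled list lay in it, at rank 28811 of 30000 and a q-value of 0.547. The other summit of the window, rank 3543, lay 2000 bp past the 3′ end of brm and 122 bp from the start of CG10516.

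In contrast to brm, osa had its peaks in introns and upstream, with none at its TSS. The gene (FBgn0261885) lies on the minus strand of 3R from 17687818 to 17718350 and held 5 IDR summits in its body, the most of the 7. The strongest of these, from 17700379 to 17700754 with the summit at 17700590, ranked 769 and lay in the fourth intron, 17760 bp from the TSS of osa and 151 bp from that of the noncoding RNA gene lncRNA:CR46036. Another in the same intron ranked 1509, with its summit inside lncRNA:CR46035. The second intron held summits of ranks 3667 and 3856, and the first intron one of rank 3333, 1181 bp from the TSS. These 3 are the weakest of the osa window, and the mean replicate percentiles were 97.0 ± 0.894 and 94.0 ± 1.12 for the fourth intron against 87.5 ± 4.36, 81.0 ± 11.5 and 89.7 ± 1.27 (SD, n = 3) for the others.

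The strongest osa summit of all, rank 570 at 17719360, lay 1010 bp upstream of the osa TSS. It was 94 bp from the start of Pxt, a peroxidase-like cyclooxygenase gene on the other strand. Its replicate ranks were 763, 553 and 613 in replicates 1, 2 and 3, with a percentile of 97.9 ± 0.361 (SD, n = 3), the smallest spread of the 17. At the osa TSS, shared by all 6 transcripts, the strongest pooled region ranked 20777 of 30000 (q-value 0.314). In replicate 1 the region ranked 7954 (q-value 0.0399), in replicate 3 it ranked 18601 (q-value 0.217), and replicate 2 listed none.

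The core subunit gene mor (FBgn0002783, 3R from 15968134 to 15972913) had summits on both sides and none in its body. The summit of rank 2112 at 15973719 lay 806 bp upstream of the mor TSS and 421 bp inside Hel89B, a SNF2-family ATPase gene that starts 385 bp away on the other strand. The summit of rank 2903 lay 2733 bp past the 3′ end, 45 bp from the start of Rbf2, a retinoblastoma family gene. Their replicate percentiles were 91.0 ± 1.64 and 88.8 ± 3.96 (SD, n = 3).

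Of the methyltransferase genes, trx alone carried peaks assigned to its own TSS and body. It lies on the minus strand of 3R from 14263358 to 14286903 (FBgn0003862), with a single TSS for its 5 transcripts. The promoter summit, 151 bp upstream at 14287054 in a peak from 14286799 to 14287308, ranked 2362. The stronger summit, rank 1322 at 14283890 in a peak from 14283729 to 14284018, lay in the first intron, 3013 bp downstream of the start. In replicates 1, 2 and 3 the intronic summit ranked 931, 1629 and 1991 and the promoter summit 3864, 2636 and 2396. The intronic summit was therefore the higher in each replicate, with percentiles of 94.9 ± 1.80 against 90.1 ± 2.62 (SD, n = 3), and the difference was smallest in replicate 3.

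The strongest peak of the whole set lay beside ash1 but not at its start. The gene (FBgn0005386) spans 3L from 19590773 to 19598755 on the minus strand. The peak of rank 327, from 19590400 to 19590842 with its summit at 19590635, lay 138 bp past the 3′ end of ash1, and 111 bp upstream of CG14100. It ranked 158, 351 and 591 in replicates 1, 2 and 3, at a percentile of 98.8 ± 0.723 (SD, n = 3). The other summits of the window, ranks 2536 and 4230, overlapped and fell in the same region of each replicate list (percentile 91.2 ± 1.21), 75 bp from CG9231 and 30 bp from CG9330. They lay over 4 kb past the 3′ end of ash1. The body of ash1 had no relaxed region of q-value below 0.05 in any of the 3 replicates.

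The ash2 gene (FBgn0000139, 3R from 24650125 to 24653376, plus strand) had a summit of rank 2070 in its window, 1705 bp past its 3′ end and 79 bp from the start of CG6695, at 92.1 ± 2.07 (SD, n = 3). None of its 3 annotated TSSs had an IDR summit, and the nearest was 3664 bp away.

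The chromodomain helicase gene kis was the longest and had the fewest IDR summits for its window, 0.2 per 10 kb. It lies on the minus strand of 2L from 210735 to 250823 (FBgn0266557), and none of its 40089 bp held an IDR summit, although the window extends to 50.1 kb. The shorter bodies of ash1, ash2, brm and mor held none either. The window's only summit, rank 2324 at 207320, lay 3415 bp past the 3′ end, inside Tbc1d15-17 and 23 bp from the start of CG11617 (90.2 ± 3.88, SD, n = 3). The kis body was not empty of weaker signal, with 9 pooled regions of q-value below 0.05, or 2.25 per 10 kb. This compares with 3.60 per 10 kb in osa (11 regions), 2.97 in trx (7 regions) and 4.18 in mor (2 regions). The value was 0 in ash1, ash2 and brm, and 0.935 per 10 kb of the major arms. The mor body is only 4780 bp long, and its stronger region has its summit 477 bp from the mor TSS.

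**Figure D2:**
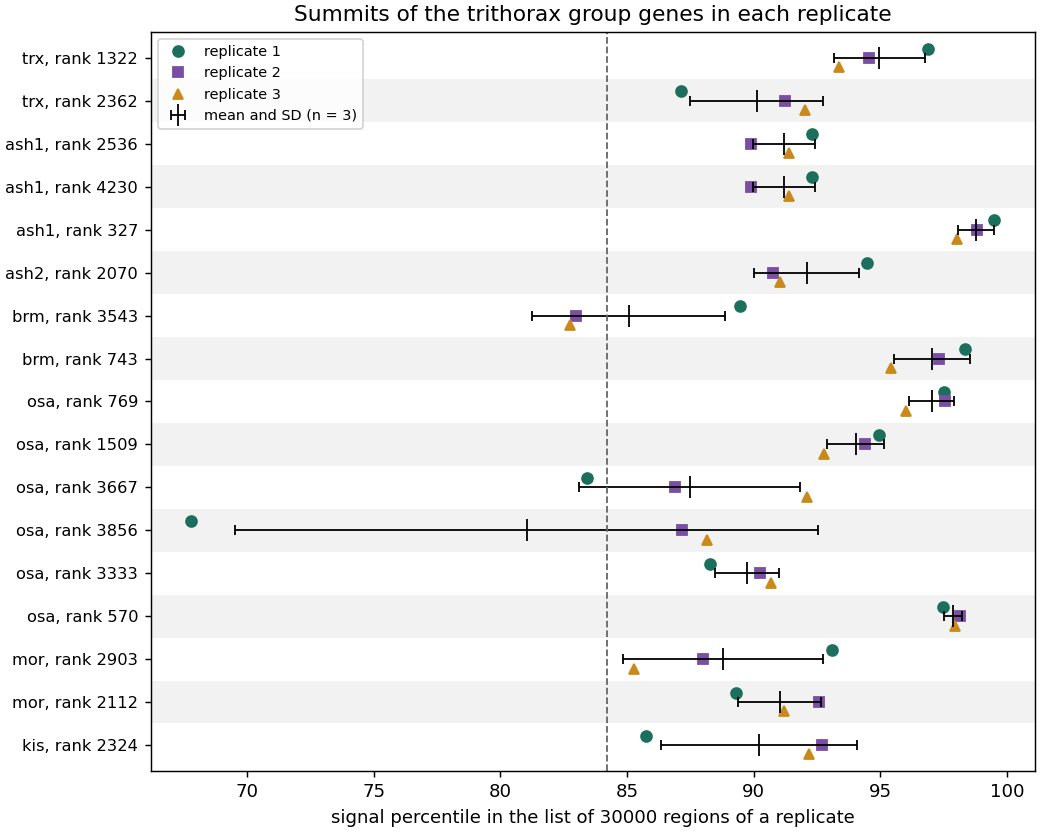
Signal percentile of each of the 17 summits in the list of 30000 regions of each replicate, with the mean and SD over 3 replicates; the dashed line at 84.2 marks the rank of the last IDR peak. Means range from 81.0 to 98.8, and the osa summit of rank 3856 spreads widest, with replicate 1 lowest.

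Most of these summits stood high in every replicate list, but the IDR peaks are the pooled regions with the highest signal. The pooled signal comes from the same 3 replicates, so high replicate ranks are not independent of it. The ranks still differed, as for the brm promoter summit at 497, 805 and 1377 in replicates 1, 2 and 3. All 17 lay in a region of every replicate list, and 14 lay among the 4753 strongest regions of all 3, against 67.9% of all IDR peaks. The 14 include the overlapping ash1 summits of ranks 2536 and 4230, which fell in the same region of each replicate list. The exceptions to the 14 were the brm summit near CG10516 and osa summits of ranks 3667 and 3856. At rank 3856, in the second intron of osa, the percentile was 67.8 in replicate 1 against 87.2 in replicate 2 and 88.1 in replicate 3, and the SD of 11.5 was the largest of the set. The other 16 summits had SDs under 5 points. For presence in every replicate list and for the SD, no share of all IDR peaks is given. Those counts therefore cannot be told apart from a trait common to all IDR peaks.

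Own TSSs without an IDR peak were not all alike below the IDR limit. The strongest pooled region within 500 bp ranked 5019 for mor, 5207 at the downstream kis TSS and 5377 for ash1, close under the last IDR rank of 4753, with trx (rank 2362) the nearest inside it. These regions each had a pooled q-value of 8.66e-05, a tied value also held by the brm TSS region of rank 743, so it does not order them. At the upstream kis TSS, used by 5 of 6 transcripts, the region ranked 6202, and at ash2 the best was 10783 (q-value 0.0223). The osa TSS stood lowest in the pooled list, at the rank given above. In replicate 1 its rank of 7954 was above those of kis (8282), ash2 (9207) and ash1 (10912).

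Single replicates placed more of these TSSs among their 4753 strongest regions. That held for trx and brm in all 3 replicates and for mor in all 3, at ranks 2183, 4510 and 4461. The mor regions differed in position, with summits 198, 427 and 178 bp from the TSS. It also held for ash1 in replicate 2 alone, at rank 4420 against 10912 in replicate 1 and 6380 in replicate 3. For kis it held in replicate 3 alone, at rank 3187 downstream and 4599 upstream. With regions of a pooled q-value below 0.05, all members but osa had a promoter region, 6 of 7, against 43.8% of protein-coding genes.

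**Figure D3:**
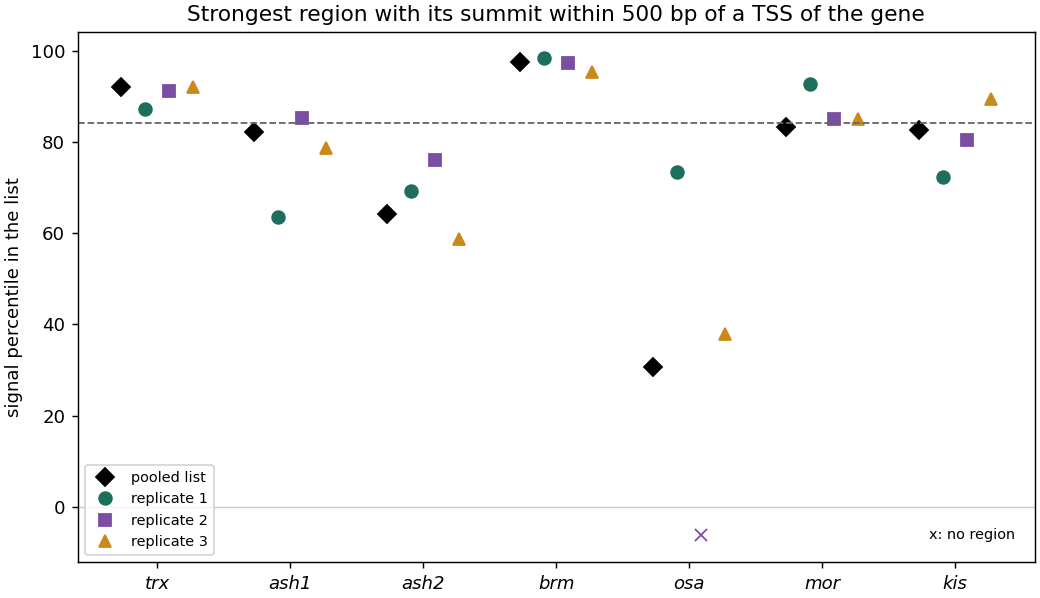
Signal percentile of the strongest region with its summit within 500 bp of any TSS of the gene, in the pooled list and in each replicate list of 30000 regions; the cross marks the list with no such region and the dashed line at 84.2 the rank of the last IDR peak. Only trx and brm lie above the line in all 4 lists; mor, kis and ash1 lie close under it in the pooled list, and osa far under.

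A summit inside the gene body was found in 2 of 7 members (trx and osa) against 12.3% of protein-coding genes. Among genes of 10 kb or more it was 2 of 4 members (trx and osa, not brm or kis) against 36.6%. The shares are given without a test, since the genes form a small named set and windows of long genes take in more peaks.

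Head-to-head promoters, where genes on opposite strands start within 1000 bp of each other, were annotated for 4 members. Of ash1 with Taf6 (333 bp), ash2 with puf (82 bp), brm with Arl1 and mor with Hel89B, the brm pair alone had a summit within 500 bp of the member's TSS. That is 1 of 4 members, against 43.7% of all head-to-head genes. Taf6, a TFIID subunit gene, and puf, a deubiquitinase gene, had no promoter summit either. The strongest summit of the window was nearest to the member's own TSS in 2 of 7 (trx and brm), against 28.8% of all genes with a window summit.

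**Figure D4:**
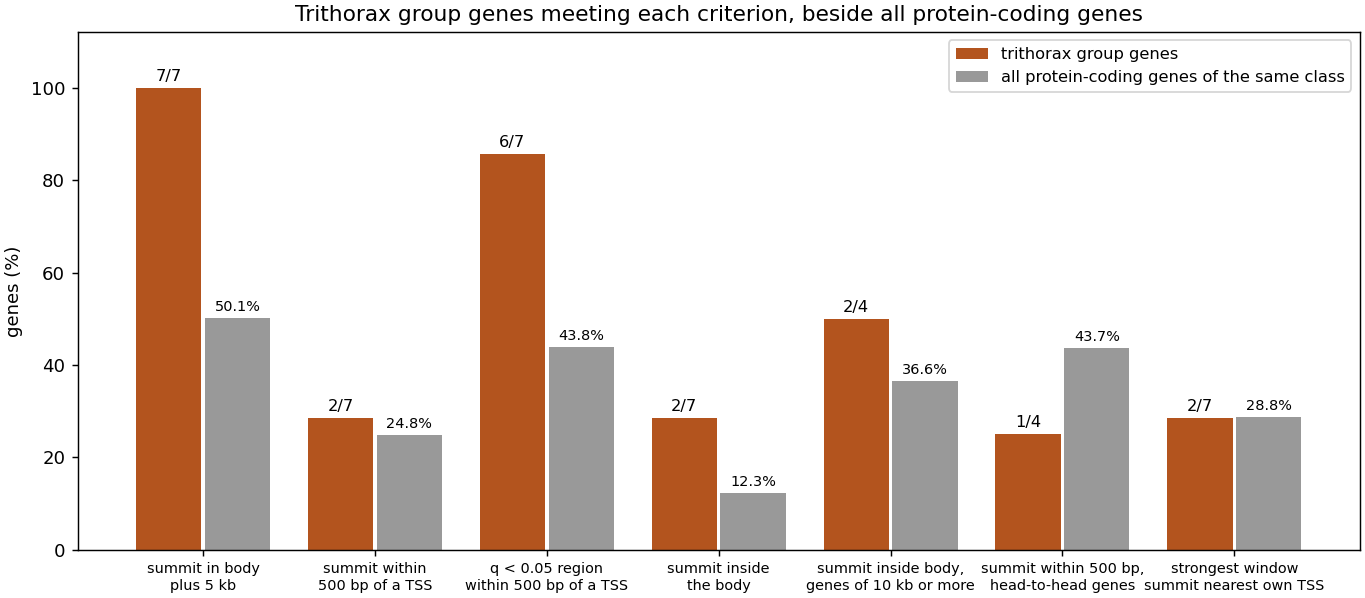
Share of trithorax group genes meeting each criterion (left bars, with counts) beside the share of all protein-coding genes of the same class (right bars). The members' share is 7 of 7 for the whole window and 2 of 7 for the promoter, beside 50.1% and 24.8%.

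No member summit had a sequence of the Insv family under it. None of the 17 summits had the Insv core CCAATTGG, the degenerate Insv site or CCAATAAG, read by the related Elba complex, wholly within 50 bp on either strand, against 3.47%, 4.50% and 1.83% of all 4753 IDR summits. Within 250 bp there was 1 match, CCAATAAG 173 bp from the promoter summit of trx, where 4.99% of IDR summits had that sequence. Within 50 bp the 3 sites were in 0.283%, 0.221% and 0.324% of 14491 low-ranked regions of the pooled list. The shares among all IDR peaks are higher than these but still low, and the count of 0 in 17 is to be read against them.

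Other promoter sequences were scattered. The DREF site TATCGATA lay 4 bp from the summit of rank 2903 in the mor window, next to the start of Rbf2, the only such match within 50 bp among the 17, against 3.09% of IDR summits. The BEAF-32 sequence CGATA, which lies inside TATCGATA, was within 50 bp of 3 of 17 summits, among them the strong ash1 summit, against 19.5%. GAGAG, read by GAGA factor, was at 4 of 17 against 14.4%, and the Pho core GCCAT at 2 of 17 against 16.2%. In the low-ranked regions the shares within 50 bp were 12.6% for CGATA, 13.2% for GAGAG and 21% for GCCAT. They were 0.428% for TATCGATA and 0.29% for GGTCACAC. The short sequences GAGAG and GCCAT were thus about as common, or more so, in weak regions. The M1BP site GGTCACAC was within 50 bp of 0 of 17 summits, against 2.76%, and within 250 bp of 4, against 9.36%. Of these, the trx promoter summit had matches at 99 and 168 bp, a single match served both overlapping ash1 summits, and the fourth was the brm summit near CG10516.

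Sites were also present at TSSs without an IDR peak. In the sequences shown above, the stretch next to the osa start holds TATCGATA and further CGATA matches, and that next to the ash1 start holds GGTCACAC and CGATA. The stretch shown upstream of mor holds GCCAT, and the whole gap between mor and Hel89B, not shown, also holds TATCGATA and CGATA. The stretch upstream of kis holds GCCAT and CGATA. The trx promoter window and the trx intron window hold none of the 8 sequences. The brm gap holds GCCAT alone. The match of these letters in a window is a description and says nothing of whether a factor binds there.

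Genes of related complexes were counted in the same way. Within 500 bp of a TSS, 22 of 43 genes in the 4 further lists had an IDR summit (51.2%), against 24.8% of protein-coding genes. Such genes are called bound, and not bound means only that no IDR summit lay there. With pooled regions of q-value below 0.05 the count was 38 of 43, against 43.8% of protein-coding genes. In the replicates the share was 53.5% ± 2.33 for these genes, 52.4% ± 8.25 for the 7 members and 23.8% ± 1.61 for all protein-coding genes (SD, n = 3). The members' share of 28.6% in the IDR list was below that in each replicate list, the added genes being mor, ash1 and kis.

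Of 7 further subunits of the Brahma complexes, 3 were bound: Snr1 (rank 2041), Bap60 (2922) and Bap55 (4182). Bap111, Bap170, polybromo and e(y)3 were not, although each had an IDR summit in its body or within 5 kb. In the COMPASS family 7 of 14 were bound, with the strongest at Dpy-30L1 (rank 635, 97.7 ± 0.125, SD, n = 3), wds (662, 97.5 ± 1.13) and Ptip (1403, 95.2 ± 0.0404). Set1, Utx, Cfp1, Wdr82, Hcf, Pa1 and Ncoa6 had no promoter summit. The nearest IDR summit to Set1 on 3L, of rank 741, was 2228701 bp away. For vtd, a 3L gene of the list described next, the nearest was of rank 741 too, at 4257632 bp.

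Of 14 other genes of the trithorax group and its partners, 7 were bound. The strongest peak was at fs(1)h, a bromodomain protein gene (rank 399, 98.5 ± 0.375, SD, n = 3), with its summit nearer to the start of mys, followed by the GAGA factor gene Trl (914) and the demethylase gene Kdm5 (2420). Iswi, Nurf-38, tna, skd, kto, vtd and MRG15 were not bound. Among 8 other SNF2-type remodellers and partners 5 were bound, led by Ino80 (1512), Hel89B (2112, the peak beside mor) and Chd1 (2167), and Chd3, Etl1 and Acf were not. Among the genes named here, the peaks of Bap60, Bap55, Dpy-30L1, wds and Chd1 also lay nearer to the start of another gene, so these summits cannot be given to 1 gene alone. Dpy-30L1 had a further IDR summit, of rank 875, at 10 bp from its own TSS.

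**Figure D5:**
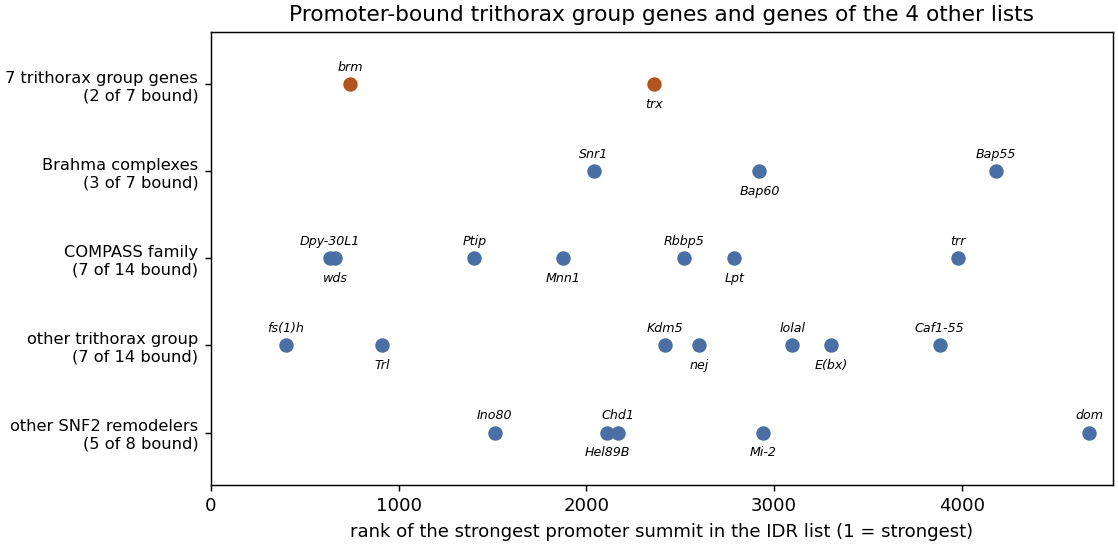
Rank in the IDR list of the strongest summit within 500 bp of a TSS, for the bound genes of the 7 trithorax group genes (top row) and of the 4 further lists, with the counts bound beside each name. The brm peak at rank 743 is stronger than all in the Brahma complex list. In the IDR list 2 of 7 members and 7 of 14 COMPASS family genes are bound, beside 24.8% of protein-coding genes. In the replicate lists the shares are 52.4% ± 8.25 for the members and 50% ± 7.14 for the COMPASS family (SD, n = 3). All protein-coding genes stand at 23.8% ± 1.61 there.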

How the data were processed

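Insv-GFP ChIP-seq peak lists from 3 biological replicates were analysed on dm6. Per the file lists deposited with the samples, the authors called relaxed regions for each replicate and for the pooled replicates from the alignments and a further file (the labels name a control experiment), and derived the IDR list from these. The deposited signal score of each region has no stated scale and served only as a rank within a list. The deposited significance column holds −log10 q-values. The deposited summit is an offset counted in bp along the region. The peak caller, aligner and IDR threshold are not stated there. The dm3 lists were not used, since no coordinates were converted. Genes and TSSs came from the Ensembl release 115 annotation (BDGP 6.54), sequence from the matching RefSeq genome, and coordinates count from 1.

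A summit was placed in a replicate list by the strongest region holding it. All 7 members are named, with the nearest gene of each summit. From each further list the 3 strongest bound genes and all unbound genes are named. Members and lists were chosen with earlier results of these data known, so no test was made. The lid symbol was matched to Kdm5, and all 43 genes were found. Planted summits and sites were checked on simulated data. Python 3.11.15, numpy 2.4.6, pandas 2.3.3 and matplotlib 3.10.9 were used.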

Additional observations from a re-analysis of the deposited data

How the results depend on the processing

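The counts depended mostly on how a peak was assigned and on the peak limit. With no flank, 2 members had a summit, against 12.3% of protein-coding genes, and 6 summits remained. With each summit given to the nearest protein-coding TSS, 3 members and 7 summits remained. With pooled regions of q-value below 0.05, 6 members and 38 of the 43 further genes were bound at a TSS, against 43.8% of protein-coding genes. The windows then held 52 of the 12515 such summits on the major arms. In the stronger 50% of the IDR peaks the windows held 10 summits and 10 further genes were bound, and trx (rank 2362) lay just inside that limit of 2376. With sites sought within 250 bp, 1 summit had an Insv or Elba site. The median over members of the replicate percentile of the strongest peak was 94.9, and 91.6 when ranked by q-value, where the strongest regions are tied. Requiring each peak among the strongest of 2 replicates, leaving out the other in turn, gave 2 bound members each time, 14 to 16 summits, 18 to 19 further genes and percentiles from 94.0 to 95.7. The IDR list still draws on all 3 replicates. With a TSS distance of 1000 bp mor was also bound, 3 of 7. For this distance, the stronger 50%, the nearest TSS and the sets of 2 replicates, no share of all protein-coding genes is given. Those counts therefore cannot be told apart from a change common to all genes. No paired analysis was possible because the samples form a single group. Read depth is unknown, which limits any statement on weak regions.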

Other observations

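The genes next to the members were bound as follows. Of 35 other protein-coding genes with a TSS in the 7 windows, 15 had an IDR summit within 500 bp of a TSS (42.9%), against 24.8% of all protein-coding genes, and neighbours often shared a summit. In the ash1 window 3 of 5 neighbours were bound (CG9231, CG9330 and CG14100) and in the mor window 3 of 5, while in the osa window 1 of 4 was, Pxt.

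Among the members, the peaks shorter than the median IDR length were mostly the stronger ones. Of the 17 peaks, 7 were shorter than the median IDR length of 510 bp, from 197 to 458 bp, and these ranked from 327 to 2112. The other 10 were all of 510 bp and ranked from 2070 to 4230, so the ranks overlapped. In the whole IDR list 41.8% of the stronger 50% of peaks and 10.4% of the weaker 50% were shorter than 510 bp.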
